A study of Mus musculus with 7 samples.

Results

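The nuclear receptors are a family of transcription factors, many of which are switched by small lipophilic ligands, and 40 of their genes were examined here in mouse intestinal epithelial cells after deletion of Mob1a and Mob1b. The members were the nuclear receptor genes other than Esr1 and the receptors of the circadian clock, and each was found through the RefSeq accession that the array files give for a probe. All 40 genes had a probe, giving 59 probes out of 55681 on the array, where 20887 genes could be named in all. MOB1A and MOB1B are adaptor proteins of the Hippo pathway, in which they activate the LATS kinases that restrain the coactivators YAP and TAZ.

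The data were single-colour (Cy3) expression arrays, 1 per mouse, from epithelial cells taken from the proximal intestine of male C57BL/6J mice aged 8 weeks. All mice carried floxed Mob1a and floxed Mob1b alleles and came from more than 6 generations of backcrossing. The labels describe every group as injected with tamoxifen, at 80 mg per kg per day on 2 days. The 2 control mice carried no Villin-creERT2, so their Mob1 genes were to stay intact. The knockout mice carried Villin-creERT2, a tamoxifen-activated recombinase driven by a promoter active in the epithelium of the gut, and were taken 4 days (2 mice), 7 days (2 mice) or 10 days (1 mouse) after tamoxifen. The labels place the controls 7 days after tamoxifen, whereas the text on the design speaks of a 0 day time and does not mention day 10, so the time of the controls is not settled. Every comparison with the single day 10 array rests on the spread measured in the other groups.

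The share of probes called well above background ranged from 45.2% to 51.3% per array, no spot was saturated, and arrays of the same group correlated at r = 0.977 to 0.988. The control and day 4 arrays occupied row 1 of a single slide and the day 7 and day 10 arrays row 2, so that a row effect cannot be told apart from the day 7 or day 10 differences from control. Day 4 against control and day 10 against day 7 each lay within a row. Both Mob1b probes read lower on all 5 knockout arrays (-2.42 to -3.43) than on the controls (-0.90 to -1.68), while the Mob1a probe was well above background on 5 of 7 arrays only and read -3.71 to -3.87 in controls and -2.18 to -4.26 in knockouts. Whether these probes lie in the deleted exons was not examined. All 8 epithelial markers (among them Epcam, Cdh1 and Vil1) were well above background on every array, with a summed linear signal, in multiples of the array's 75th percentile, of 1090 to 1229 in controls and 1248 at day 10. This sum covers members that moved both ways at day 10, where Krt18 (1.72) and Cdh1 (1.29) were called higher and Cdx1 (-2.85) and Vil1 (-1.42) lower. The 6 T cell markers probed summed to 13.1 to 16.9 in controls, 14.3 to 16.5 at day 7 and 2.28 at day 10, where 5 of the 6 were called lower and Trat1 was below background. The 6 myeloid markers summed to 37.7 to 38.9 in controls and 79.2 at day 10, with 3 called higher. Of 7 fibroblast markers, Col1a1, Lum, Pdgfra and Pdgfrb were below background on all 7 arrays, Col3a1 was above it on 3, Dcn on 5 and Col1a2 on 7, and the list summed to 0.478 to 0.624 in controls and 0.254 at day 10. Of 5 smooth muscle markers, Cnn1, Des and Myh11 were below background throughout, Acta2 was above it on 2 arrays and Tagln on 7 (summed signal 1.93 to 2.97 in controls, 1.07 at day 10). Of 5 endothelial markers, Cdh5 and Tek were below background throughout, Vwf was above it on 2 arrays, and Kdr and Pecam1 on 7 (7.198 to 8.05 in controls, 5.49 at day 10). Of 6 B and plasma cell markers, Cd79a was below background throughout, Mzb1 was above it on 1 array, Ms4a1 on 2, and Cd79b and Jchain on 7 (2.06 to 3.56 in controls, 1.06 at day 10). In such bulk RNA, fewer cells of a type and less RNA per cell cannot be told apart, and the part of these marker shifts in the receptor differences was not tested.

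**Figure D1:**
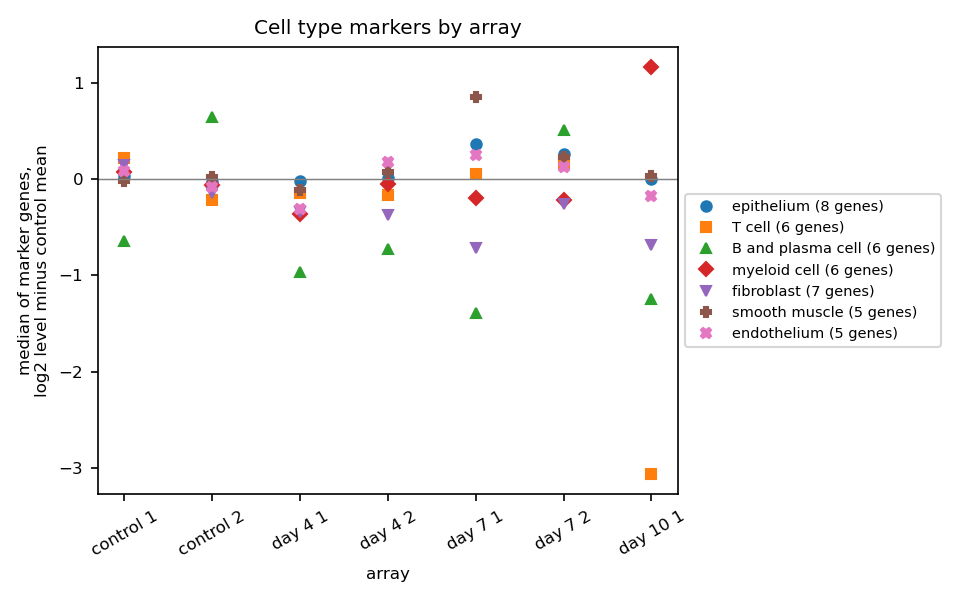
Median over the marker genes of each cell type of the log2 level minus the control mean (vertical axis), for each of the 7 arrays (horizontal axis); genes below background are included. The T cell markers stand at -3.06 and the myeloid markers at 1.16 on the day 10 array, while the epithelial median, over members that moved both ways at day 10, stays between -0.03 and 0.36 on all arrays.

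Most nuclear receptors bind DNA as homodimers or as heterodimers with a retinoid X receptor (RXR) and exchange corepressors for coactivators when a ligand binds. In the intestine, members of the family sense dietary fatty acids, vitamin A, vitamin D, bile acids, oxysterols and foreign compounds, and the HNF4 factors maintain the gene programme of the absorptive enterocyte. The NR4A receptors act without a known classical ligand and are induced as immediate early genes by many stimuli.

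Of the 40 receptor genes, 35 were detected, by the rule that 2 or more of the 7 arrays read a probe of the gene as well above background. The probe standing for the gene, the one with the highest mean level, was well above background on all 7 arrays for 29 of them. Rora, Pgr and Nr4a3 were above background on no array. Nr2f1 was above background only at day 10, by 1 of its 2 probes (-3.52), and Esrrb only in control 2. These 5 genes were not tested. Levels here are log2 signals minus the 75th percentile of the array, so 0 is the array's 75th percentile and 1 unit is a doubling.

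At day 4 none of the 35 receptors was called, against 0.0323% of all 24760 features tested. A call throughout is an adjusted p under 0.05 in limma, adjusted over all features. The differences from control ran from -1.23 for Nr0b2 to 2.84 for Rarb, with a median of -0.11 beside -0.08 over all features, and no receptor had an unadjusted p under 0.05. At day 7, 5 receptors fell (Nr1h3, Nr1i3, Nr2e3, Esrrg and Nr0b2) and 1 rose (Nr4a1), where 7.46% of all features were called, 4.5% lower and 2.96% higher. Of the 5 that fell, Nr2e3 and Nr0b2 were above background on the control and day 4 arrays and on neither day 7 array. These 2 entered the test only through the groups where they are high, and their day 7 p-values rest on signals below background. The median difference of the 35 was -0.35 and that of all features -0.08. At day 10, 18 fell and 2 rose, beside 17.6% and 10.4% of all features, and the medians were -1.22 and -0.15. Among the 18, Nr2e3, Nr0b2, Thrb and Esrrg were below background on the day 10 array. Their p-values in comparisons with day 10 rest on that signal below background. The day 4, day 7 and day 10 comparisons share the same 2 control arrays. A gene above background on the day 10 array alone, such as Nr2f1, could not enter the test, whereas genes below background only there could. The split into falls and rises at day 10, for receptors and for all features, is thus partly set by this filter. With no filter on dim probes, 49.7% of the day 10 calls over all features were higher, against 37.2% with it. The day 7 calls rest on both controls: without control replicate 1 or without control replicate 2, 0 of the 6 stayed called, and without day 7 replicate 1 only Nr2e3 did. Over 17 or 18 alternative settings the day 7 call was lost in 3 for Nr1i3, in 4 for Nr1h3 and for Esrrg, in 5 for Nr0b2, in 6 for Nr2e3 and in 8 for Nr4a1. The day 10 call was lost in 9 of 17 for Nr1h2, in 7 for Nr1i2, in 3 for Esrra and in 2 each for Nr3c2, Ppard and Thra, and in none of the settings run for the other 14 genes.

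**Figure D2:**
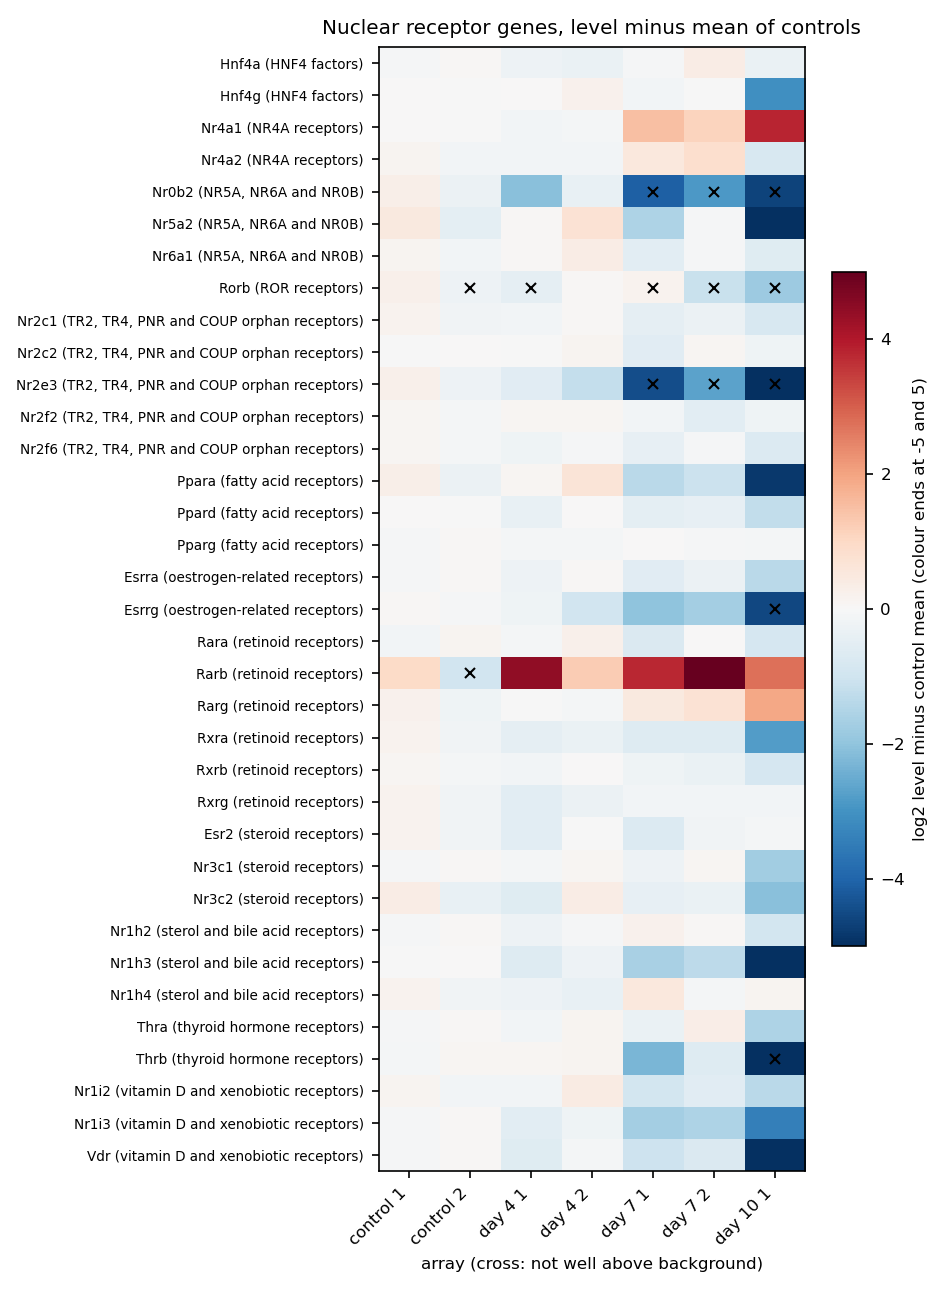
Log2 level minus the mean of the 2 controls (colour, ending at -5 and 5) for the 35 detected receptor genes (rows, with their class) on each of 7 arrays (columns); a cross marks a probe not well above background. Most rows turn blue on the day 10 array, Nr4a1 turns red from day 7, and Rarb varies among arrays of the same group.

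**Figure D3:**
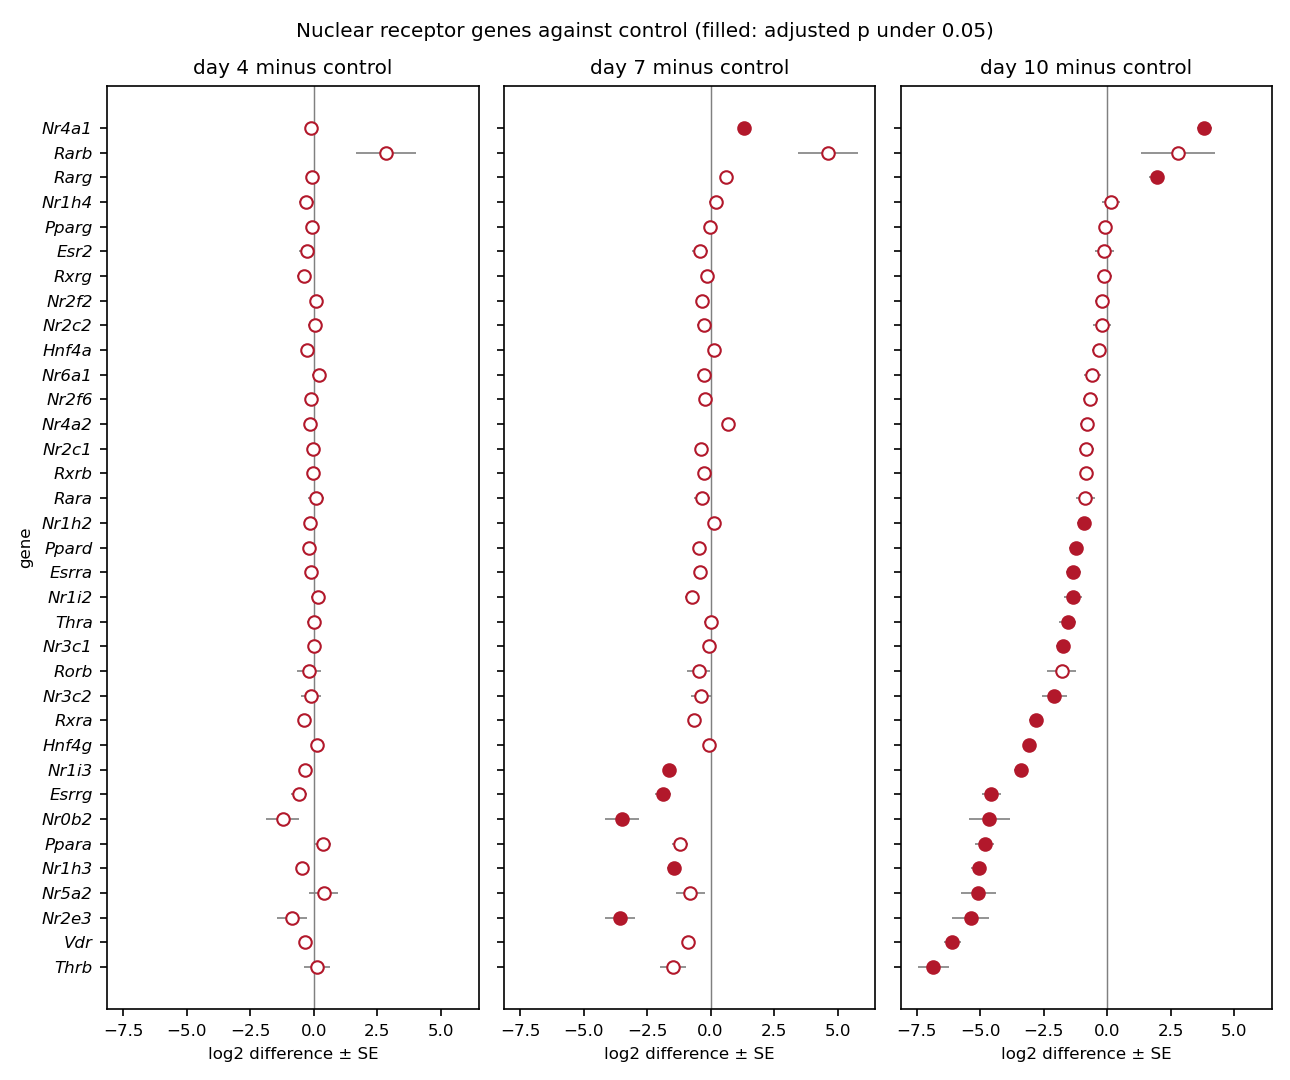
Log2 difference from control ± SE (horizontal axis) for the 35 detected receptor genes (vertical axis) at day 4, day 7 and day 10; filled points have an adjusted p under 0.05. There are 0 filled points at day 4, 6 at day 7 and 20 at day 10, of which 18 lie below 0.

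The receptors for xenobiotics and vitamin D fell together by day 10, and Nr1i3 was already called at day 7. Nr1i3 encodes CAR, a sensor of foreign compounds that induces detoxifying enzymes. Its levels were 4.61 and 4.72 in controls, 4.14 and 4.45 at day 4, 2.96 and 3.12 at day 7, and 1.25 at day 10. Each time point lay below all control arrays, and the day 7 and day 10 arrays lay below all earlier ones. The difference from control was -1.62 ± 0.22 (SE) at day 7, a 3.08-fold fall (adjusted p = 0.0133), and -3.41 ± 0.28 at day 10, a 10.6-fold fall (adjusted p = 6.19e-04). Nr1i3 was also the only receptor called lower at day 7 than at day 4, by -1.25 ± 0.22 (adjusted p = 0.0493), where 1.43% of all features were called lower. This call was lost in 12 of 18 alternative settings. A second Nr1i3 probe moved the same way, from 2.67 and 2.96 in controls to 1.34 and 1.60 at day 7 and -0.41 at day 10, and was not called for the step from day 4 to day 7 (adjusted p = 0.0637 with every probe as a feature of its own). In that fit a Ppara probe that does not stand for its gene was called lower for the step (-1.71, adjusted p = 0.0432).

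Vdr encodes the vitamin D receptor, which drives intestinal calcium uptake. It read 4.94 and 5.03 in controls, 4.39 and 4.90 at day 4, 3.95 and 4.28 at day 7, and -1.11 at day 10. The day 7 arrays lay below the controls, but the difference of -0.87 ± 0.26 was not called (adjusted p = 0.116). At day 10 Vdr was 68.6-fold lower than in controls (-6.10 ± 0.32, adjusted p = 2.43e-04) and 37.4-fold lower than at day 7 (adjusted p = 7.79e-04). Nr1i2, encoding the pregnane X receptor PXR, read 4.00 and 3.71 in controls, 3.74 and 4.29 at day 4, 2.96 and 3.29 at day 7, and 2.51 at day 10. It was called at day 10 alone, 2.54-fold lower than in controls (adjusted p = 0.0327).

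Among the sterol and bile acid receptors, Nr1h3 fell, while the related Nr1h2 and the bile acid receptor Nr1h4 differed little at day 7. Nr1h3 encodes LXRα, an oxysterol receptor that induces cholesterol efflux genes. Its levels were 4.46 and 4.53 in controls, 3.86 and 4.23 at day 4, 2.87 and 3.20 at day 7, and -0.57 at day 10. The groups were ordered without overlap from control to day 10. The day 7 difference was -1.46 ± 0.24, a 2.75-fold fall (adjusted p = 0.0218), and that at day 10 was -5.07 ± 0.30, a 33.5-fold fall (adjusted p = 2.68e-04). Nr1h2, encoding the paralogue LXRβ, read 5.20 and 5.34 in controls, 5.02 and 5.23 at day 4, 5.48 and 5.31 at day 7, and 4.34 at day 10. Its day 7 difference was 0.13, with a 95% interval from -0.40 to 0.66, and at day 10 it was called 1.90-fold lower (adjusted p = 0.0456). Nr1h4, encoding FXR, read between 3.26 and 4.13 on all 7 arrays, with a difference from control of 0.15 at day 10 and a 95% interval from -0.70 to 1.00.

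Nr0b2 and Nr5a2 act with these receptors: Nr0b2 encodes SHP, a receptor without a DNA-binding domain that represses others and is induced by FXR in the liver and ileum, and Nr5a2 encodes LRH-1, an activator of Nr0b2 in the liver. Nr0b2 read -1.73 and -2.34 in controls, -4.14 and -2.40 at day 4, -6.11 and -4.92 at day 7, and -6.67 at day 10. The day 7 and day 10 arrays were not well above background, so only a bound can be given for the fold. It compares the mean of the brighter group with, on each array of the dimmer group, the higher of the gene's own signal and the lowest signal well above background there. Nr0b2 was at least 4.26-fold lower at day 7 (adjusted p = 0.0318) and at least 5.63-fold lower at day 10 (adjusted p = 0.00833). Of 2 Nr5a2 probes, the dimmer read -2.68 and -2.76 in controls, -4.11 and -2.99 at day 7, and -5.11 at day 10. It was below background on day 7 replicate 1 and at day 10. Its day 10 level stood -2.39 from control and -1.56 from day 7, a step for which only the brighter probe was called. By the brighter probe, Nr5a2 read 2.33 and 1.37 in controls, 1.90 and 2.56 at day 4, 0.31 and 1.77 at day 7, and -3.23 at day 10. The day 7 arrays overlapped the controls (-0.80 ± 0.57, adjusted p = 0.454), and the day 10 level was 33.7-fold below control (adjusted p = 0.0036) and 19.3-fold below day 7 (adjusted p = 0.0101).

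The upstream sequence of Nr0b2 is shown because it holds 2 copies of TCAAGG, the core letters of the LRH-1 site. Nr0b2 was called lower at day 7, when Nr5a2 was not, and was below background from then on. Whether the level of Nr5a2 bears on that of Nr0b2 was not tested. The sequence is the 250 bases before the annotated start in RefSeq (GRCm38.p6, chr4:133553126-133553375, plus strand), written 5′ to 3′ with TCAAGG in capitals.
Nr0b2: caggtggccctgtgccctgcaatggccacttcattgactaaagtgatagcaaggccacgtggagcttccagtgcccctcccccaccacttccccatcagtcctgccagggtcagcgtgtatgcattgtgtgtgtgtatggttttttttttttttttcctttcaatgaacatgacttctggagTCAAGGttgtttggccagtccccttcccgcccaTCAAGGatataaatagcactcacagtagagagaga
Searched on both strands, TCAAGG or its complement CCTTGA stood at least once in 12.5% of 32817 upstream windows of the same length and in 10.5% of the 57 windows of 37 receptor genes. At least 2 copies stood in 0.923% of all windows, and Nr0b2 was the only receptor gene with 2. The half-site of the family itself, AGGTCA or TGACCT, stood in 14.0% of all windows and in 15.8% of the receptor windows. The letters CATTCC or GGAATG, the core of the site of the TEAD factors that YAP and TAZ bind, stood in 12.6% and 12.3%. The share in the receptor windows was thus close to that in all windows for each of these motifs.

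Of the 3 fatty acid receptor genes, Ppara and Ppard were called lower at day 10. Ppara encodes PPARα, an activator of fatty acid oxidation, and read 4.05 and 3.49 in controls, 3.85 and 4.40 at day 4, 2.43 and 2.71 at day 7, and -1.05 at day 10. The day 7 arrays lay below all 4 earlier arrays, but the difference of -1.20 ± 0.31 was not called (adjusted p = 0.076). At day 10 Ppara was 28.4-fold lower than in controls (adjusted p = 5.66e-04). All 3 Ppara probes pointed the same way, the second reading 2.16 and 1.76 in controls and -0.21 at day 10 and the third 2.28 and 1.92 against -3.24. Ppard, encoding the widely expressed PPARδ, read 4.23 and 4.16 in controls, 3.82 and 4.21 at day 4, 3.70 and 3.80 at day 7, and 2.98 at day 10, where it was 2.33-fold lower (adjusted p = 0.0231). Pparg, best known from adipocyte differentiation, stayed between 3.15 and 3.30 on all 7 arrays, and the 95% interval of its day 10 difference ran from -0.70 to 0.51. Whether the PPAR genes differ from each other in their change was not tested.

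**Figure D4:**
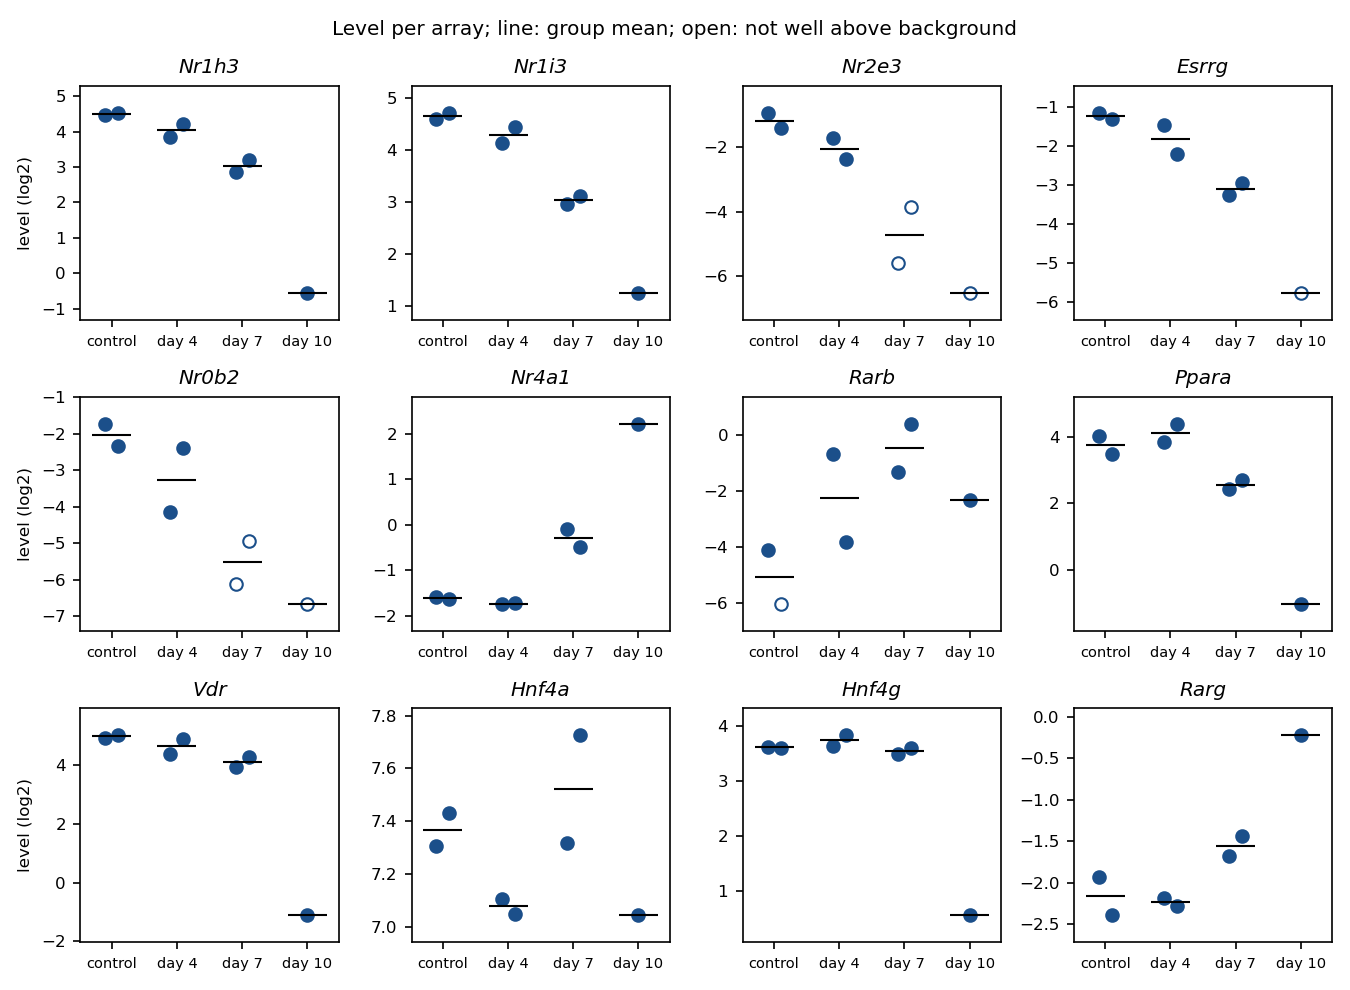
Log2 level relative to the 75th percentile of the array (vertical axis, scaled per gene) for 12 receptor genes in control, day 4, day 7 and day 10 arrays (horizontal axis); each point is 1 array, the line is the group mean, and open points were not well above background. Nr1h3, Nr1i3, Nr2e3, Esrrg and Nr0b2 are lower and Nr4a1 is higher at day 7 than in controls, and Hnf4a spans 7.04 to 7.73 over all arrays.

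The 2 HNF4 genes gave unlike values at day 10. Hnf4a, a central regulator of enterocyte genes, read 7.31 and 7.43 in controls, 7.11 and 7.05 at day 4, 7.32 and 7.73 at day 7, and 7.04 at day 10. Its differences from control were 0.15 at day 7 (95% interval from -0.41 to 0.72) and -0.33 at day 10 (from -1.02 to 0.37), neither of them called. Hnf4g, the paralogue found mainly in the intestine and kidney, read 3.63 and 3.61 in controls, 3.65 and 3.84 at day 4, 3.50 and 3.60 at day 7, and 0.55 at day 10. Its 6 earlier arrays spanned less than the step to day 10, where it was 8.39-fold below control (-3.07 ± 0.26, adjusted p = 6.77e-04). The 95% intervals of the day 10 differences of Hnf4a and Hnf4g (from -3.69 to -2.45) did not overlap, and the difference between the genes was not tested.

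Both thyroid hormone receptor genes were called lower at day 10. Thrb read 0.06 and 0.30 in controls, 0.29 and 0.32 at day 4, -2.11 and -0.48 at day 7, and -6.66 at day 10, where it was not well above background. Its day 7 difference of -1.47 ± 0.51 was not called (adjusted p = 0.157), and the 2 day 7 mice differed from each other by more than their nearer member did from control. At day 10 Thrb was at least 26.2-fold below control (adjusted p = 8.95e-04). Thra, the form that predominates in intestinal epithelium, read 4.73 and 4.81 in controls, 4.64 and 4.89 at day 4, 4.45 and 5.10 at day 7, and 3.21 at day 10, a 2.94-fold fall (adjusted p = 0.0198). A second Thra probe was not called at day 10 (-1.16, adjusted p = 0.0676).

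Of the retinoid receptors, Rxra fell and Rarg rose at day 10, and no member was called at day 7. Rxra encodes an RXR, the obligate partner of the vitamin D, PPAR, LXR, FXR, PXR and CAR receptors. It read -0.45 and -0.83 in controls, -1.10 and -0.99 at day 4, -1.26 and -1.28 at day 7, and -3.43 at day 10, where it was 6.94-fold lower (adjusted p = 0.00121). The other RXR genes were not called: at day 10 Rxrb stood -0.82 from control (adjusted p = 0.0622) and Rxrg -0.12. A second Rxrg probe was well above background at day 10 alone (-3.09) and did not enter the test.

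Rarg, a retinoic acid receptor, read -1.93 and -2.39 in controls, -2.19 and -2.28 at day 4, -1.68 and -1.44 at day 7, and -0.22 at day 10. The day 7 arrays lay above all earlier ones without a call (0.61 ± 0.25, adjusted p = 0.22), and the day 10 level was 3.84-fold above control (adjusted p = 0.00588) and 2.52-fold above day 7 (adjusted p = 0.0316). Rarb, itself a target of retinoic acid, read -4.11 and -6.06 in controls, -0.66 and -3.83 at day 4, -1.31 and 0.41 at day 7, and -2.31 at day 10. By this probe, all knockout arrays lay above both controls, of which 1 was below background. Arrays of the same group lay far apart, however, with SDs of 1.38 in controls, 2.24 at day 4 and 1.21 at day 7 (n = 2 each). The difference of 4.64 ± 1.18 at day 7 had an adjusted p of 0.075. A second Rarb probe was above background on 2 arrays only, and on it day 4 replicate 2 (-6.59) lay below control 1 (-6.36). Rara was not called by its brighter probe (-0.86 at day 10, adjusted p = 0.149), whereas its other probe gave -1.75 (adjusted p = 0.00684).

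Of the steroid receptors detected, Nr3c1 and Nr3c2 were called lower at day 10 and Esr2 was not. Nr3c1 encodes the glucocorticoid receptor and read 4.49 and 4.59 in controls, 4.44 and 4.63 at day 4, 4.29 and 4.66 at day 7, and 2.79 at day 10. The first 3 groups overlapped, and the day 10 level was 3.36-fold lower than control (adjusted p = 0.00665). Nr3c2, the mineralocorticoid receptor gene, read -1.004 and -1.71 in controls, -1.95 and -0.99 at day 4, -1.77 and -1.69 at day 7, and -3.45 at day 10, a 4.25-fold fall (adjusted p = 0.023). Esr2, encoding oestrogen receptor β, read between 2.65 and 3.47, and its difference from control was -0.42 at day 7 and -0.11 at day 10.

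The oestrogen-related receptors are orphan activators of mitochondrial and oxidative genes, and Esrrg was the member that fell by day 7. Esrrg read -1.15 and -1.30 in controls, -1.45 and -2.19 at day 4, -3.25 and -2.94 at day 7, and -5.79 at day 10, where it was not well above background. Each group lay below the one before it. The fall was 3.66-fold at day 7 (-1.87 ± 0.31, adjusted p = 0.0203) and at least 9.87-fold at day 10 (adjusted p = 6.51e-04). A second Esrrg probe fell in parallel, from -1.31 and -1.66 in controls to -3.93 and -3.15 at day 7. Esrra read 6.63 and 6.73 in controls, 6.41 and 6.75 at day 4, 6.12 and 6.39 at day 7, and 5.34 at day 10, where it was 2.53-fold lower (adjusted p = 0.0182).

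Nr4a1 was the only receptor called higher at day 7, and its relative Nr4a2 went the other way from day 7 to day 10. Nr4a1, an immediate early gene also called Nur77, read -1.60 and -1.63 in controls, -1.75 and -1.72 at day 4, -0.09 and -0.49 at day 7, and 2.21 at day 10. The 4 control and day 4 arrays lay close together, and the day 7 and day 10 arrays lay above them without overlap. The rise over control was 2.50-fold at day 7 (1.32 ± 0.23, adjusted p = 0.0245) and 14.2-fold at day 10 (3.83 ± 0.28, adjusted p = 4.86e-04). It was also called higher at day 7 than at day 4 (1.44 ± 0.23, adjusted p = 0.0375), beside 1.24% of all features, and higher at day 10 than at day 7 (5.67-fold, adjusted p = 0.00297). The call for the step from day 4 to day 7 was lost in 9 of 18 alternative settings. Nr4a2, encoding Nurr1, read -0.16 and -0.43 in controls, -0.45 and -0.43 at day 4, 0.22 and 0.55 at day 7, and -1.09 at day 10. The day 7 arrays were the highest and the day 10 array the lowest. The differences from control were 0.68 at day 7 (adjusted p = 0.154) and, in the other direction, -0.79 at day 10 (adjusted p = 0.0884), while Nr4a2 fell 2.78-fold from day 7 to day 10 (adjusted p = 0.0185). A second Nr4a2 probe followed the same order, with -1.97 and -2.70 in controls, -1.17 and -1.54 at day 7, and -3.18 at day 10. Nr4a3 was below background throughout (-6.02 to -6.78).

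The upstream sequences of the 3 NR4A genes are shown because the genes share a motif. TGACG, or CGTCA on the other strand, is the core of the cyclic AMP response element through which immediate early genes are induced, and overlapping copies on the 2 strands are each counted. The windows are the 250 bases before the annotated start in RefSeq (GRCm38.p6), 5′ to 3′ on the gene's strand, with the motif in capitals. They lie at chr15:101266596-101266845 (Nr4a1, plus strand), chr2:57124004-57124253 (Nr4a2, minus strand) and chr4:48045055-48045304 (Nr4a3, plus strand).
Nr4a1: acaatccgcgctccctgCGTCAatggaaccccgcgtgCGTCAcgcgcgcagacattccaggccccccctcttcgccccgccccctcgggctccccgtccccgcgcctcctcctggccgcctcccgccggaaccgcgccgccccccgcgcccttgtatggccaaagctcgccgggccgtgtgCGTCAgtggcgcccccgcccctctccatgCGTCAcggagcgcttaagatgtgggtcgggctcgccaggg
Nr4a2: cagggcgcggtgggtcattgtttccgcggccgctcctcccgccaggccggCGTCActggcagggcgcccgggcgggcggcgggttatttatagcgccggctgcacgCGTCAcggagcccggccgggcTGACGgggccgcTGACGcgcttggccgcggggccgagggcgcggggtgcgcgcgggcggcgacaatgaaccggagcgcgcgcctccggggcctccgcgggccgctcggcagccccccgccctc
Nr4a3: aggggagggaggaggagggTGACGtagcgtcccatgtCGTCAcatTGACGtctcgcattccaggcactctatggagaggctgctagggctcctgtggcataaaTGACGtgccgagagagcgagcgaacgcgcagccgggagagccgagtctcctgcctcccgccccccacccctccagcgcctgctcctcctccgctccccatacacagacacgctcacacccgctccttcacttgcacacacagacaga
Each window holds 4 copies. At least 1 copy stood in 17.8% of all 32817 windows and in 21.1% of the 57 receptor windows. At least 4 copies stood in 0.137% of all windows, 45 in number, and in 3 receptor windows, those of the NR4A genes. Whether the motif bears on the levels of these genes was not tested, and Nr4a3 was not detected on any array.

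Of the remaining orphan receptors only Nr2e3 was called. Nr2e3, known from photoreceptors of the retina, read -0.93 and -1.40 in controls, -1.72 and -2.36 at day 4, -5.62 and -3.85 at day 7, and -6.55 at day 10. It was well above background on the control and day 4 arrays and on no later one. The fall was at least 7.07-fold at day 7 (adjusted p = 0.0209) and at least 10.3-fold at day 10 (adjusted p = 0.00328). Both p-values rest on signals below background. The nuclear receptors TR2 and TR4 (Nr2c1 and Nr2c2), the COUP factors Nr2f2 and Nr2f6, and the germ cell factor Nr6a1 were above background on all 7 arrays. Their differences ran from -0.36 to -0.22 at day 7 and from -0.82 to -0.20 at day 10, all without a call. Rorb was above background on 2 arrays only (control 1 at -3.96 and day 4 replicate 2 at -4.18) and stood -1.80 from control at day 10 (adjusted p = 0.0591).

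From day 7 to day 10, which lay within 1 row of the slide, 13 receptors fell and 2 rose, beside 10.7% and 7.2% of all features. Besides Nr4a2, the genes that fell were Vdr (37.4-fold), Nr5a2 (19.3-fold), Ppara (12.3-fold), Nr1h3 (12.2-fold), Thrb (at least 9.41-fold), Hnf4g (7.99-fold), Rxra (4.46-fold), Nr1i3 (3.46-fold), Nr3c1 (3.21-fold), Thra (2.96-fold), Esrrg (at least 2.70-fold) and Nr1h2 (2.08-fold). Their adjusted p-values ran from 7.79e-04 for Vdr to 0.0424 for Nr1h2. The 2 that rose were Nr4a1 and Rarg. The call was lost in 11 of 17 alternative settings for Nr1h2 (adjusted p up to 0.17), in 8 for Thra (up to 0.103), in 7 for Rarg (up to 0.105) and in 1 each for Nr3c1 and Nr4a2. All of these differences depend on the single day 10 array.

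Where several probes of a receptor were tested (14 receptors), they pointed the same way for 13 at day 7, Nr2c2 being the exception, and for 14 at day 10. The call was the same for all 14 at day 7 and for 12 at day 10, with Thra and Rara as the exceptions. For the step from day 7 to day 10 it was the same for 12, with Nr5a2 and Rara as the exceptions.

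The genes through which the receptors act were examined in lists of textbook coregulators, ligand-handling genes and targets. The lists were chosen with earlier results of these data known. Their counts beside the shares of all features are therefore a description and not a test. None of their genes was called at day 4 in limma, where 0 to 4 genes per list had an unadjusted p under 0.05. Among the coregulators, 0 of 11 coactivators and 0 of 10 corepressors were called at day 7, beside 7.46% of all features, with median differences of -0.01 and 0.00, and 2 and 1 had an unadjusted p under 0.05 in limma. Single members lay on both sides of 0, such as the acetyltransferase gene Kat2b at 0.77, the steroid receptor coactivator gene Ncoa3 at 0.65 and the deacetylase gene Hdac3 at -0.74. At day 10 the only one called was Ppargc1a, the coactivator PGC-1α, at 5.24-fold below control (adjusted p = 0.00588), beside 28.1% of all features called either way.

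Of the targets of the xenobiotic receptors, at day 7, 9 of 10 tested were called lower and none higher, with a median of -2.55 beside -0.08 for all features, and at day 10 again 9 of 10, with a median of -6.73. Cyp2c55, a drug-metabolising cytochrome P450, was 117-fold lower at day 7 (-6.87 ± 0.63, adjusted p = 0.00452), with 1 of 2 day 7 arrays above background, so that the size of the fall is uncertain. Gstm1, a glutathione transferase, was 43.2-fold lower (adjusted p = 0.00221), Cyp3a25 39.7-fold lower (adjusted p = 0.00966) and Cyp2b10, the classical CAR target, 6.89-fold lower (adjusted p = 0.0036). These enzymes have close relatives in the genome, and whether the probes tell them apart was not examined. Of 4 vitamin D receptor targets, 3 fell at day 7 (median -3.02): the phosphate-linked glucose-6-phosphate antiporter gene Slc37a2 14.7-fold (adjusted p = 0.00221), the calcium-binding protein gene S100g 10.3-fold (adjusted p = 0.0198) and the calcium channel gene Trpv6 6.35-fold (adjusted p = 0.0422, 1 of 2 day 7 arrays above background). Atp2b1, which pumps calcium out of the cell, differed by 0.10. At day 10, 2 of the 4 were called lower. The share of all features called lower was 4.5% at day 7 and 17.6% at day 10.

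PPAR targets were mixed at day 7, with 3 of 15 lower and 1 higher (median -0.69). Of all features, 4.5% were called lower and 2.96% higher at day 7, and 17.6% lower and 10.4% higher at day 10. The same shares stand beside the bile acid, oxysterol and HNF4 counts below. Cyp4a10, a fatty acid hydroxylase, fell by 3.52 on the log2 scale (adjusted p = 0.00346), and Acot1, an acyl-CoA thioesterase, fell 5.70-fold (adjusted p = 0.00504). Vnn1, a pantetheinase, rose 13.0-fold (adjusted p = 0.00213). At day 10, 10 were lower and 2 higher (median -1.77). Among 10 targets of the bile acid and oxysterol receptors, Abca1, the cholesterol exporter induced by LXR, was the only one called at day 7, at 30.2-fold below control (adjusted p = 0.00135), and 6 were lower at day 10 (medians -0.35 and -1.72). None of the 11 HNF4 targets was called at day 7 (median -0.30, 1 with an unadjusted p under 0.05), and 10 were lower at day 10 (median -2.82), among them Mep1a, a brush border protease, by 32.4-fold (adjusted p = 0.00438) and Apoa4, an apolipoprotein of lipid absorption, by 11.9-fold (adjusted p = 0.00157).

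Of the 5 retinoic acid receptor targets tested, 4 were called higher and 1 lower at day 10 (median 3.18). Tgm2, a transglutaminase, was 9.68-fold higher (adjusted p = 0.0027). Cyp26b1, which degrades retinoic acid, was 3.01-fold higher (adjusted p = 0.0444, above background in 1 of 2 controls), and Dhrs3, a retinal reductase, was lower. At day 7 none of the 5 was called (median 0.65, 3 with an unadjusted p under 0.05). Genes of ligand supply and inactivation numbered 15 tested, with 4 lower at day 7 (Fabp5, Rbp2, Aldh1a1 and Cyp27a1; median -0.65) and 8 lower and 3 higher at day 10 (median -1.57). Rbp2, which carries retinol in the enterocyte, fell 2.73-fold at day 7 (adjusted p = 0.0216), and Aldh1a1, which makes retinoic acid, 2.67-fold (adjusted p = 0.0338). Of 9 glucocorticoid and mineralocorticoid receptor targets 1 fell at day 7, the chaperone gene Fkbp5, by 7.09-fold (adjusted p = 0.00547), and at day 10 the count was 2 higher and 1 lower. The shares of all features called were 4.5% lower at day 7, and 10.4% higher and 17.6% lower at day 10. With 9 glucocorticoid and mineralocorticoid receptor targets tested, counts of 1 or 2 are too small to be set apart from these shares. Of 9 targets of the oestrogen-related receptors 2 fell at day 7, Cox6a2 by 2.58-fold (adjusted p = 0.0173) and Uqcrc1 by 2.12-fold (adjusted p = 0.0457), both of the respiratory chain, and 6 at day 10 (medians -0.25 and -1.16). The lists share 8 genes, so their counts are not independent of each other.

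**Figure D5:**
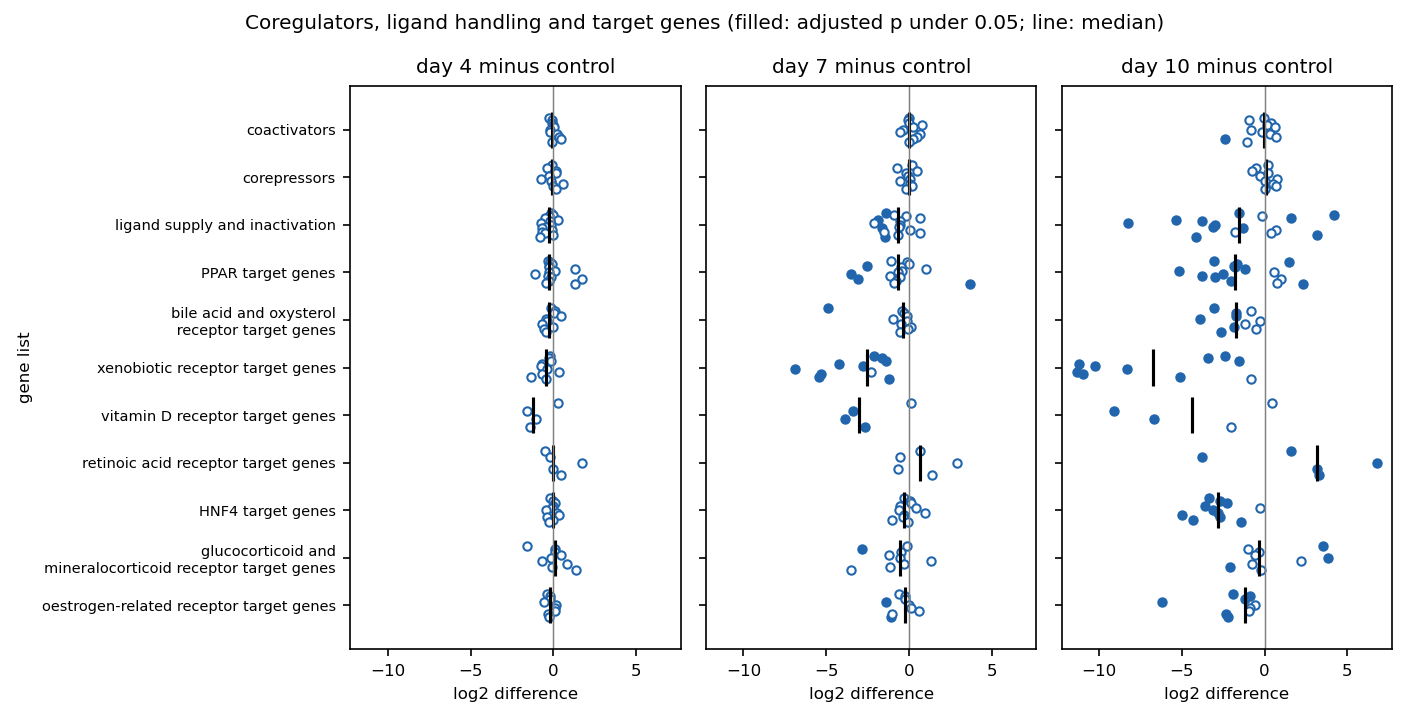
Log2 difference from control (horizontal axis) of each tested gene in 11 lists of receptor coregulators, ligand-handling genes and target genes (vertical axis) at day 4, day 7 and day 10; filled points have an adjusted p under 0.05 and the line is the list's median. No point is filled at day 4, the xenobiotic and vitamin D targets lie farthest left at day 7, and the retinoic acid targets lie mostly right of 0 at day 10.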

How the data were processed

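Epithelial RNA of 7 mice was measured on 1 array each. The intensity values were deposited by the authors as raw scanner files, which per the file headers came from Feature Extraction 11.5.1.1 (Agilent) with array design 028005 and the build label mm9; gProcessedSignal is the background-subtracted spot signal, with no scaling between arrays. The deposited value table holds the same linear intensity, within 0.1% for 100% of single-spot probes, with column medians of 15.2 to 30.5, and was used as an alternative; how it combined repeated spots is unknown. The scanner files held no gene names, so probes were named through their RefSeq accessions (RefSeq table, GRCm38.p6).

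Control and outlier spots (115 to 274 per array) were left out, log2 signals were reduced by the array's 75th percentile, and spots of a probe were averaged. Probes well above background on at least 2 arrays were kept, and each gene was represented by its probe with the highest mean, giving 24760 features. limma 3.58.1 (R 4.3.3) fitted 1 mean per group over all 7 arrays (lmFit and eBayes, 2-sided, 3 residual and 3.16 prior degrees of freedom), with Benjamini-Hochberg adjustment over all features. The fit was tested on simulated data. The number of arrays limits the precision, and nothing beyond the labels' numbering shows how the mice were raised or paired.

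Values in every array are given for members called in any comparison or differing from control by at least 1 at day 7 or day 10 without overlap between day 7 and control; of each related list, up to 4 genes with the smallest day 7 p were named, and genes named from day 10 were chosen after their values were seen. Some list genes and markers are not reported here by name. The members and lists were chosen with earlier results of these data known. Alternatives were other scalings (median, detected-probe percentile, quantile), normexp (on the median signal, the mean signal column not being in the files used here), other filters on dim probes, other probe summaries, the value table, the replicate block, only the groups compared, and leaving out each array.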

Additional observations from a re-analysis of the deposited data

Results flagged for a closer look

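Both results here are differences between time points under the same contrast with control, tested in limma as the step from day 4 to day 7. For Nr1i3, the difference from control at day 7 minus that at day 4 was -1.25 (adjusted p = 0.0493), with both day 7 arrays below both day 4 arrays. Over the alternatives its adjusted p ran from 0.0271 to 0.274. For Nr4a1 the same quantity was 1.44 (adjusted p = 0.0375), with both day 7 arrays above both day 4 arrays, and its adjusted p ran from 0.0179 to 0.233. The day 4 arrays lay in row 1 and the day 7 arrays in row 2 of the slide, and row and time cannot be told apart in this step.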

How the results depend on the processing

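Among the recomputed values of receptors named in the text, 903 kept their direction and their side of the threshold, 104 kept their direction but missed it, 3 newly passed it and 6 turned direction, all of the latter uncalled at day 7: Hnf4g 0.013 and Nr3c1 0.029 (quantile normalization), Thra -0.12 (normexp), and, when single arrays were left out, Nr3c1 (-0.25 to 0.12, turned without day 7 replicate 1) and Thra (-0.32 to 0.33, turned without control replicate 1 and without day 7 replicate 2). The 5 receptors lower at day 7 became 1 when dim probes were kept and 3 with probes above background on all 7 arrays, and 0 to 6 when single arrays were left out. The 1 higher became 0 with normexp, no filter or only the 2 groups compared, and 0 to 1 when single arrays were left out. From day 4 to day 7, the 1 lower became 3 with median scaling, 2 with probes above background on all 7 arrays, and 0 with the detected-probe percentile, quantile normalization, no filter, the mean of probes, the replicate block or only the 2 groups compared (0 to 2 without single arrays), and the 1 higher became 0 with median scaling, normexp, no filter or only the 2 groups compared (0 to 1 without single arrays). From day 7 to day 10, the 2 higher became 1 with the replicate block or only the 2 groups compared (1 to 2 without single arrays); with no filter the count stayed at 2, with Nr2f1 called in place of Rarg. Counts at day 10 against control stayed within 1.5 times, as did the 0 calls at day 4 and the 35 detected receptors wherever a count could be made; the cause of these changes was not tested. Over all features, the 1847 calls at day 7 became 913 with no filter, 1067 with only the 2 groups compared and 522 without control replicate 1. The median of all features at day 10 was -0.15, -0.35 with median scaling and 0.08 with the detected-probe percentile, and the share of calls that were higher was 37.2%, 27.6% and 49.2%. Same-numbered arrays correlated at r = 0.008 to 0.25 in their deviations, which with 2 arrays per group cannot show whether the numbers pair the mice. With the replicate block, 5 receptors were lower and 1 higher at day 7. Nothing can be recomputed for day 10 without its only array, and leaving it out of the fit, an alternative chosen after seeing the data, kept the 5 lower and 1 higher at day 7.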
